A study of Mus musculus with 7 samples.

Results

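Paneth cells, which fill the crypt base of the small intestine and release antimicrobial proteins, also make some digestive products known from the acinar cells of the exocrine pancreas. The 8 genes described here were chosen by name: the pancreatic lipase relatives Pnliprp2 and Pnliprp1, the colipase Clps, the bile salt-activated lipase Cel, the ribonuclease Rnase1, the trypsin inhibitor Spink1, the serine protease Habp2 and the coatomer subunit Copz2. They are 8 of 19938 genes with a transcript cluster (the probes that the array pools for a gene) of their own, and each was represented by a single cluster. RNA came from Paneth cells sorted by flow cytometry from mice aged 4 months, with 1 array per sample. Of the 7 samples, 3 came from mice fed freely (ad libitum diet) and 4 from mice on a calorie restricted diet with 60% of the ad libitum calories, and the feeding lasted 4 to 7 weeks. The labels call the samples biological replicates without saying whether each is 1 animal or a pool, and they name neither a strain nor a genotype.

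Dietary triglyceride is split in the gut lumen by lipases that need a partner at the surface of the fat droplet. Colipase anchors pancreatic lipase there against bile salts, Pnliprp2 also acts on phospholipids and galactolipids, and Pnliprp1 has little known lipase activity. Cel hydrolyses cholesterol esters and other lipids once bile salts activate it. Rnase1 degrades RNA, and Spink1 blocks trypsin that becomes active too early inside a secretory granule. Habp2 is a secreted hyaluronan-binding protease that can activate coagulation factor VII, and Copz2 is a zeta subunit of the coat on vesicles that return from the Golgi to the endoplasmic reticulum. Habp2 and Copz2 are not digestive enzymes.

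Values are log2 expression values, so 1 unit is a 2-fold step. Array medians ran from 7.24 to 7.44 and the highest value on each array from 14.60 to 14.67. The brightest of 15 Paneth markers were Lyz1 (lysozyme), Defa24 (a defensin), Itln1 (a lectin) and Mmp7 (the protease that matures defensins). Their lowest value on any array was 13.7, and other Paneth markers ran down to 8.33. The goblet cell markers Muc2 (13.82 to 14.12) and Spink4 (13.98 to 14.17) were as bright, so brightness alone does not single out Paneth cells. Markers of other cells were also measured: 5 of 9 immune and stromal markers were above the receptor level defined below on all arrays, with the myeloid lysozyme gene Lyz2 at 12.68 to 12.95, which resembles Lyz1 in sequence, and the leukocyte gene Ptprc at 6.74 to 7.27. All 8 enteroendocrine markers were above it too, with the granule protein gene Chga at 12.24 to 13.33, and 0 of the 8 were called by limma, all with positive differences (median 0.27). The means of 26 tested enterocyte (absorptive cell) markers were 11.46 to 11.69 in the calorie-restricted samples and 10.04 to 10.72 in the ad libitum samples, and 11 of the 26 were called higher. Goblet and stem cell marker means overlapped between the diets, with all 7 goblet and all 8 stem cell markers tested above the same level. Fewer cells of a type and less RNA per cell cannot be told apart in such samples.

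The table has no detection calls, so the 95th percentile of 1205 clusters for olfactory and vomeronasal receptors, genes of the nose, was taken as a background level on each array. It lay between 6.65 and 6.83. Of the 8 genes, 7 were above it on all 7 arrays, and Cel was below it on all 7. The gap to that level was 6.99 to 7.38 log2 units for Pnliprp2 and 7.28 to 7.63 for Clps, the 2 genes closest to the highest values the arrays gave, where true differences may appear smaller. Rnase1 was 6.62 to 7.19 above it, Habp2 5.81 to 6.63, Copz2 4.11 to 5.16, Pnliprp1 3.49 to 6.10 and Spink1 1.18 to 2.76. Probes differ in how strongly they bind, so these gaps show a signal above background and do not rank the transcripts by abundance.

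The stretches before the start sites of 4 of these genes are shown. All 4 share an order of arrays described further on, and Pnliprp1 and Pnliprp2 lie next to each other on chromosome 19 among the genes measured. RefSeq promoter sequences (build GRCm38.p6) matched 6 of the 8 genes, and Clps and Spink1 were not matched. The windows of Copz2, which shares the order too, and of Cel are not printed. Neither held a motif searched here, so the 4 shown include every window with a match. Each line gives the 250 bases before the start site, 5′ to 3′ on the gene's own strand, from chr19:58728637-58728886 (plus strand), chr19:58759473-58759722 (plus strand), chr19:56287662-56287911 (plus strand) and chr14:51146768-51147017 (minus strand) in that order. Capitals mark a match on either strand to GATAAG (the GATA factor motif) or GTTAAT (a half-site of HNF1), and the E-box CAGCTG of acinar bHLH factors, the E-box CAGATG and the TATA motif TATAAA were also searched on both strands.
Pnliprp1: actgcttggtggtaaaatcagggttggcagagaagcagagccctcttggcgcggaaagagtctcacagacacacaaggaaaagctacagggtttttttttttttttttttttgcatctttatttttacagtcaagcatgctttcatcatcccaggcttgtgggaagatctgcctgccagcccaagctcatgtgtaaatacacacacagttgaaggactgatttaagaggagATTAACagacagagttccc
Pnliprp2: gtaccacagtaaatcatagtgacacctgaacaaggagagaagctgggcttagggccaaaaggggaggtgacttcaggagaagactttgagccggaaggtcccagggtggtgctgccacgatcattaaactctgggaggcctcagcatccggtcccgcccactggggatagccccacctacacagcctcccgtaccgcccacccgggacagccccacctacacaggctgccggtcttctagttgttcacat
Habp2: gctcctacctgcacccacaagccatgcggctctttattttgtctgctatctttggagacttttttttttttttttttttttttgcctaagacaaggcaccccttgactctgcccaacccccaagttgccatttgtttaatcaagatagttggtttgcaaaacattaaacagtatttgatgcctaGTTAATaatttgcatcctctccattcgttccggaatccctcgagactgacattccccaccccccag
Rnase1: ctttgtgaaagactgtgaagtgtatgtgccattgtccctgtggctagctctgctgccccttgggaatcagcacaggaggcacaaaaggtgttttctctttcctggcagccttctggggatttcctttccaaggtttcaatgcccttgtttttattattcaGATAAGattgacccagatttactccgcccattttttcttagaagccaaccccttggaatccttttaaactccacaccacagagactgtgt

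GTTAAT was found before Pnliprp1, starting 19 bases before the start site on the opposite strand, and before Habp2, starting 66 bases before it on the same strand, and 6.43% of all 32851 windows of this length hold it. GATAAG was found before Rnase1, 90 bases before the start site, against 6.55% of all windows. No window of the 6 matched genes held either E-box or the TATA motif. CAGCTG is in 13% of all windows, while CAGATG is in 14.4% and TATAAA in 12.4%. The G and C content also differed among the genes. It was 43.6% before Pnliprp1, 42.8% before Habp2 and 45.6% before Rnase1, below the 52.4% median of all windows. It was 58.4% before Pnliprp2, 56.4% before Cel and 66.0% before Copz2. These matches describe letters and are not measured binding sites.

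The question put to these genes was whether the diet moved the Paneth cell's digestive products. By limma, 0 of the 7 genes tested were called at an adjusted p below 0.05, and 1 of the 7, Spink1, had an unadjusted p below 0.05, as did 1247 (9.30%) of all genes tested. Over all 13409 genes tested 0.664% were called (0.656% higher and 0.00746% lower), so a count of 0 among 7 does not set these genes apart. Each difference subtracts the ad libitum mean from the calorie-restricted mean and is given ± SE. Means are given ± SD over the 4 calorie-restricted or 3 ad libitum samples. The difference was negative for 6 of the 7 genes, with a median of -0.11, where 45.8% of all genes tested were negative and their median was 0.01. Cel was under the filter on dim genes and was not among the 7. The 6 negative genes share an order of arrays described further on, so their signs are not separate observations. Differences were also negative for 12 of 15 Paneth, 6 of 7 goblet and 7 of 7 tuft cell markers tested. They were negative for 4 of 8 stem cell, 0 of 26 enterocyte and 0 of 8 enteroendocrine markers.

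**Figure D1:**
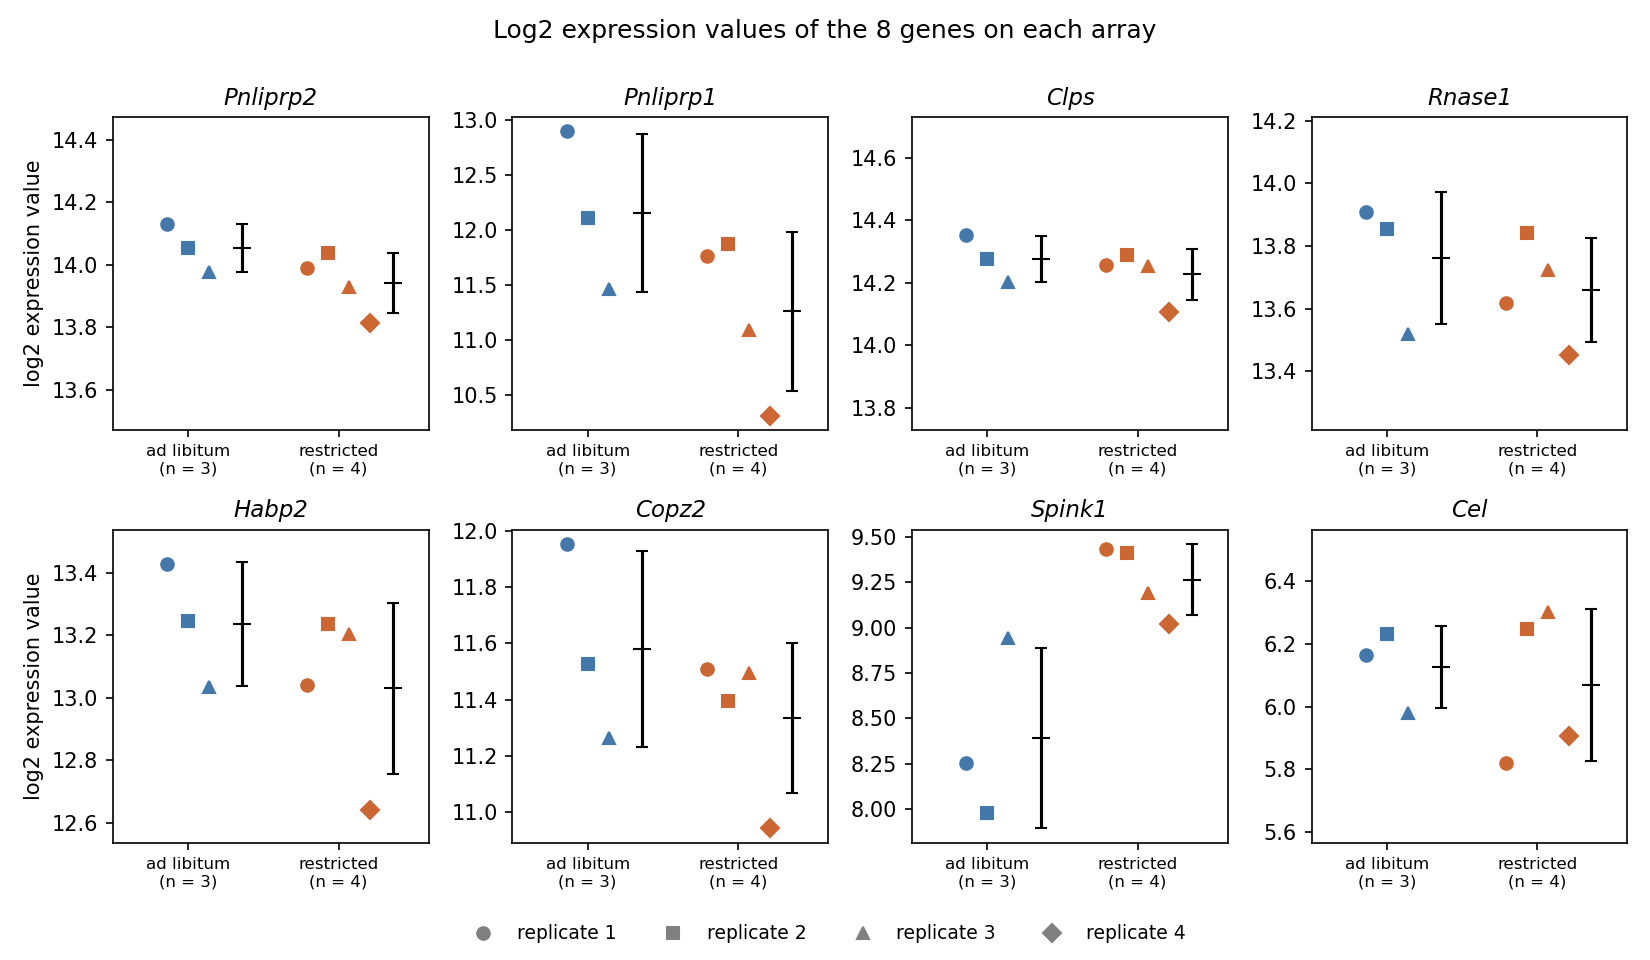
Log2 expression values of the 8 genes, 1 point per array, with ad libitum samples in blue (n = 3), calorie-restricted samples in orange (n = 4), marker shape for the replicate number and black bars for the mean ± SD. The vertical scale differs between panels: Spink1 is the 1 panel in which the diets do not overlap, and Pnliprp1 spans the widest range, from 10.31 to 12.89.

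**Figure D2:**
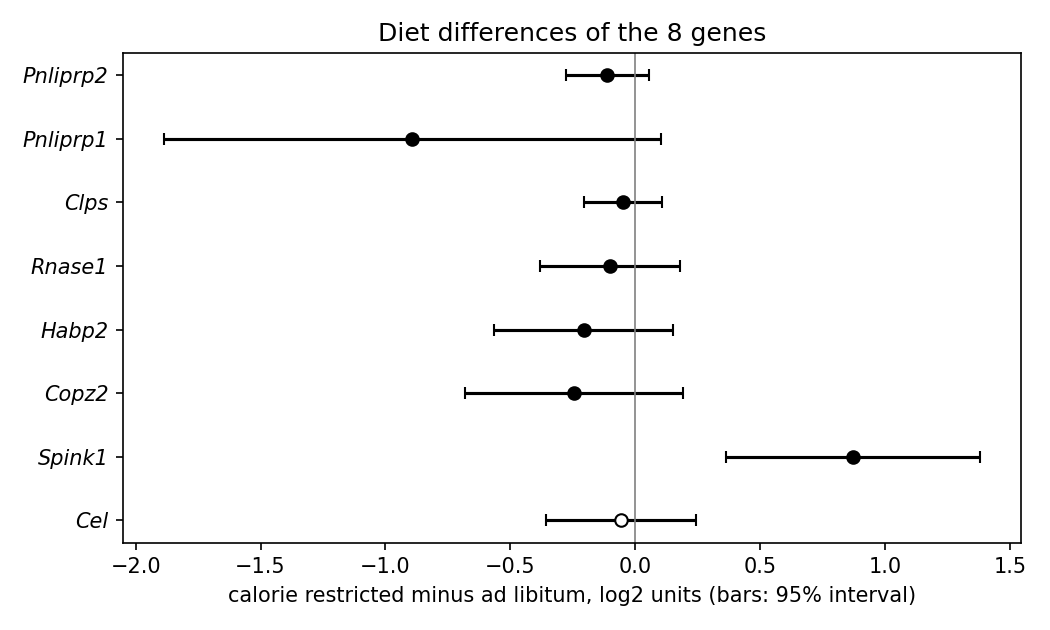
Difference between the diets for each gene in log2 units, calorie restricted minus ad libitum, with the 95% interval from limma; the open symbol is Cel, taken from the fit without the filter on dim genes. The interval of Spink1 (0.36 to 1.38) lies above 0 and the others include 0.

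Pnliprp2, the lipase relative active on phospholipids and galactolipids, stood at 14.13, 14.05 and 13.98 in ad libitum replicates 1 to 3 and at 13.99, 14.04, 13.93 and 13.81 in calorie-restricted replicates 1 to 4. The diets overlapped, and the lowest value belonged to calorie-restricted replicate 4. The difference was -0.11 ± 0.07, with a 95% interval of -0.28 to 0.05 (limma, adjusted p = 0.737). It was -0.07 without calorie-restricted replicate 4 or ad libitum replicate 1. This interval runs from a 1.21-fold lower to a 1.04-fold higher signal under calorie restriction. It describes the measured signal, which for Pnliprp2 lies near the top of the range, where true differences may appear smaller.

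Pnliprp1, its neighbour on chromosome 19, varied far more. It was at 12.89, 12.10 and 11.46 in ad libitum replicates 1 to 3 and at 11.77, 11.87, 11.09 and 10.31 in calorie-restricted replicates 1 to 4. Ad libitum replicate 1 was the highest array and calorie-restricted replicate 4 the lowest, and the other arrays of the diets overlapped. The mean was 11.26 ± 0.72 under calorie restriction against 12.15 ± 0.72, a difference of -0.89 ± 0.43 (95% interval -1.89 to 0.10; limma, adjusted p = 0.611). Its SD over the 7 arrays, 0.81, was larger than that of 99.3% of the genes tested, and the interval ran from a 3.70-fold lower to a 1.07-fold higher level. Leaving out each array in turn gave -1.24 (without ad libitum replicate 3) to -0.52 (without ad libitum replicate 1), with -0.58 without calorie-restricted replicate 4.

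Clps, the colipase, was at 14.35, 14.27 and 14.20 in ad libitum replicates 1 to 3 and at 14.25, 14.29, 14.25 and 14.11 in calorie-restricted replicates 1 to 4. Its values overlapped between the diets and spanned 0.24 log2 units, against a median span of 0.43 over all genes tested. The difference was -0.05 ± 0.07 (95% interval -0.20 to 0.11; limma, adjusted p = 0.884), and it turned to 0.04 after median centring. It was -0.01 without calorie-restricted replicate 4 or ad libitum replicate 1 and -0.09 without ad libitum replicate 3. Cel, the bile salt-activated lipase, was at 6.17, 6.23 and 5.98 in the ad libitum samples and at 5.82, 6.25, 6.30 and 5.91 in the calorie-restricted ones. All of these lay under the receptor level, so no expression of Cel was shown, and the difference without the filter was -0.06 ± 0.13 (95% interval -0.36 to 0.24; limma, adjusted p = 0.943), with a sign that turned after quantile normalization and after median centring (0.03 in both). Its measured neighbours Ralgds (9.01 to 9.53) and Gtf3c5 (8.56 to 8.97) were above the receptor level on all arrays. The genes flanking the Pnliprp1 and Pnliprp2 pair, Ccdc172 and 1700019N19Rik, were under it on all arrays.

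Among other genes listed as lipid-digesting enzymes or their relatives, 2 of 13 tested were called higher under calorie restriction and 0 lower, with a median difference of 0.06. They were Enpp7, the alkaline sphingomyelinase, at 10.75 ± 0.42 against 9.09 ± 0.37 (limma, adjusted p = 0.0369), and Pla2g12b, a secreted phospholipase relative, at 10.30 ± 0.05 against 9.41 ± 0.22 (limma, adjusted p = 0.0182). The enterocyte markers, with a median difference of 1.12, moved with both, and their part in these values was not tested. The antimicrobial phospholipase Pla2g2a was at 13.53 ± 0.12 against 13.44 ± 0.14. Pla2g2f, another secreted phospholipase, had a difference of -0.05 ± 0.23, and the ceramidase gene Asah2 one of 0.21 ± 0.18. The colipase-like gene Clpsl2, which neighbours Clps, lay between 6.32 and 6.88 and passed the receptor level on 1 array only.

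Rnase1, the secreted ribonuclease, was at 13.91, 13.85 and 13.52 in ad libitum replicates 1 to 3 and at 13.62, 13.84, 13.72 and 13.45 in calorie-restricted replicates 1 to 4. The diets overlapped, and calorie-restricted replicate 4 and ad libitum replicate 3 were the lowest of their diets. The difference was -0.10 ± 0.12 (95% interval -0.38 to 0.18; limma, adjusted p = 0.867). It ran from -0.22 without ad libitum replicate 3 to -0.03 without ad libitum replicate 1 or calorie-restricted replicate 4, and was -0.16 and -0.05 without calorie-restricted or ad libitum replicate 2. Of 13 other genes of this ribonuclease family and its inhibitor with a cluster of their own, 4 were tested and 0 were called (1 positive and 3 negative differences, median -0.15), and the other 9 lay under the receptor level on all arrays. The tested ones were Ang4, a Paneth cell angiogenin, at 13.48 ± 0.11 against 13.56 ± 0.04, the ribonuclease inhibitor gene Rnh1 (0.00 ± 0.13), Ang6 (-0.45 ± 0.27) and Ang2 (-0.23 ± 0.11). Angiogenins are close copies, so probes may bind more than 1 of them. Both measured neighbours of Rnase1 on chromosome 14, Rnase6 and Rnase2b, belong to the family and were among the 9.

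Spink1, the trypsin inhibitor, had the lowest unadjusted p of the 8 genes. It was at 8.25, 7.98 and 8.94 in ad libitum replicates 1 to 3 and at 9.43, 9.41, 9.19 and 9.02 in calorie-restricted replicates 1 to 4. All calorie-restricted arrays lay above all ad libitum arrays, by 0.08 log2 units at the closest pair, ad libitum replicate 3 and calorie-restricted replicate 4. Groups that do not overlap are common here, at 10.2% of all genes tested (7.14% higher and 3.03% lower). The mean was 9.26 ± 0.20 against 8.39 ± 0.50, a difference of 0.87 ± 0.22 or 1.83-fold (95% interval 0.36 to 1.38). It did not pass over all genes (limma, unadjusted p = 0.00409, adjusted p = 0.191). Without ad libitum replicate 3 the difference was 1.15 and passed (limma, adjusted p = 0.0307), as it did with array weights (1.11, adjusted p = 0.0155), and over all alternatives its adjusted p ran from 0.0155 to 0.970.

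The enterocyte marker means moved with Spink1. They were 10.67, 10.04 and 10.72 in ad libitum replicates 1 to 3 and 11.66, 11.69, 11.69 and 11.46 in calorie-restricted replicates 1 to 4. The lowest array was ad libitum replicate 2 for both, whereas ad libitum replicates 1 and 3, alike in the marker mean, differed by 0.69 in Spink1. With that mean as a covariate the Spink1 difference was -0.32 ± 0.46, and since the means do not overlap between the diets, diet and marker level cannot be told apart. The 4 called markers with the smallest p were the apolipoprotein Apoc3, the transcription factor Creb3l3, the trehalase Treh and the fatty acid binding protein Fabp2. Paneth marker means lay between 11.87 and 12.11 under calorie restriction and between 12.04 and 12.22 in the ad libitum samples.

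**Figure D3:**
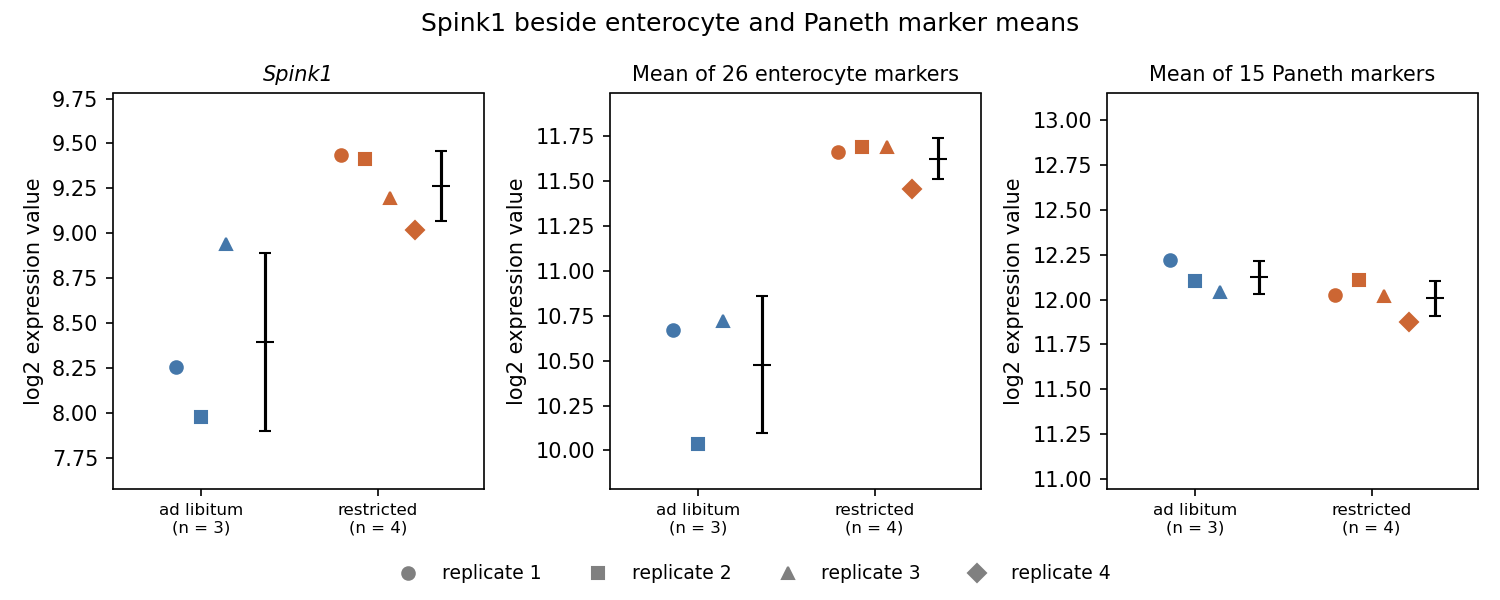
Spink1 (left), the mean of 26 enterocyte markers (middle) and the mean of 15 Paneth markers (right) on each array in log2 expression values, with ad libitum samples in blue (n = 3), calorie-restricted samples in orange (n = 4) and black bars for the mean ± SD. The diets do not overlap for Spink1 or the enterocyte mean, and they overlap for the Paneth mean.

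Trypsins, the targets of Spink1, gave little signal: Prss2, Prss3, Try4, Try5 and Try10 lay under the receptor level on all arrays. The neighbours of Spink1 among the genes measured, Jakmip2 and Scgb3a2, also lay under it on all arrays. Of 17 genes for trypsins and their inhibitors and activators with a cluster of their own, 4 were tested and 0 were called (2 positive and 2 negative differences, median 0.13), and 10 of the 17 lay under the receptor level on all arrays. Spink4, a relative of Spink1 known from goblet cells, was at 14.08 to 14.17 on every array but calorie-restricted replicate 4 (13.98), with a difference of -0.06 ± 0.06. The protease inhibitor genes Serpinb1a (0.32 ± 0.10) and Serpina1c (0.86 ± 0.90) and the chymotrypsin C gene Ctrc (-0.10 ± 0.11) were the others tested. Serpina1c spanned 3.56 log2 units over the 7 arrays, and it belongs to a family of near-identical copies.

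Habp2, the hyaluronan-binding protease, was at 13.43, 13.24 and 13.03 in ad libitum replicates 1 to 3 and at 13.04, 13.24, 13.20 and 12.64 in calorie-restricted replicates 1 to 4. The diets overlapped, with calorie-restricted replicate 4 under the other 6 arrays by 0.39 or more. The difference was -0.21 ± 0.16 (95% interval -0.56 to 0.15; limma, adjusted p = 0.794). It was -0.08 without calorie-restricted replicate 4 and -0.11 without ad libitum replicate 1. Among 14 genes of coagulation-related proteases and their partners with a cluster of their own, 7 were tested, 1 was called higher and 0 lower, and the median difference was -0.19. The called gene was F3, tissue factor, at 7.38 ± 0.10 against 6.80 ± 0.12 (limma, adjusted p = 0.0415), which lay above the receptor level on 5 of 7 arrays. Hgfac, which activates hepatocyte growth factor, had the highest mean of the 7, at 11.32 ± 0.29 against 11.69 ± 0.33. The anticoagulant protein C gene Proc was at 8.13 ± 0.37 against 8.74 ± 0.29, with groups that did not overlap and a difference of -0.62 ± 0.22 that did not pass (limma, adjusted p = 0.402). Of the measured neighbours of Habp2, the Wnt effector gene Tcf7l2 lay between 10.48 and 10.79 and the muscle gene Nrap between 6.82 and 7.05.

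Copz2, the coatomer subunit, was at 11.95, 11.53 and 11.26 in ad libitum replicates 1 to 3 and at 11.51, 11.39, 11.49 and 10.94 in calorie-restricted replicates 1 to 4. The diets overlapped, and the highest and lowest arrays were again ad libitum replicate 1 and calorie-restricted replicate 4. The difference was -0.25 ± 0.19 (95% interval -0.68 to 0.19; limma, adjusted p = 0.799). It was -0.06 without ad libitum replicate 1, -0.12 without calorie-restricted replicate 4 and -0.41 without ad libitum replicate 3. None of 16 other genes of the coat and of its small GTPases was called by limma (10 positive and 6 negative differences, median 0.04). Their values spanned between 0.14 and 0.70 log2 units over the 7 arrays, against 1.01 for Copz2. Its paralog Copz1, named for that reason, spanned 0.23 and was at 11.62 ± 0.09 against 11.55 ± 0.04. The coat subunits Copa (0.06 ± 0.11) and Arcn1 (0.09 ± 0.09) and the GTPases Arf1 (-0.01 ± 0.07) and Arf4 (0.14 ± 0.16) had the highest means. The microRNA gene Mir152, a neighbour of Copz2 on chromosome 11, lay between 7.12 and 7.57, and its other neighbour Nfe2l1 between 10.43 and 10.71.

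The genes shared an order of arrays within each diet. Calorie-restricted replicate 4 was the lowest of its diet for 7 of the 7 genes tested, against 36.8% of all genes, 57.6% of the 99 genes with a mean of 13 or more, 12 of 15 Paneth and 15 of 26 enterocyte markers. For 6 of the 7, all but Spink1, ad libitum replicate 1 was the highest and ad libitum replicate 3 the lowest of theirs. Of all genes tested 19.3% had this full order, as did 28.3% of the 99 bright genes. It held for 8 of 15 Paneth markers, 10 of 16 acinar and Paneth secretory transcription factors and 6 of 16 coat genes, and for 0 of 26 enterocyte and 0 of 7 goblet markers. Of the other pancreatic acinar genes tested only 1 of 11 had it. Among the other lipid-digesting enzymes and their relatives tested 5 of 13 had it, as did 2 of 4 of the ribonuclease family and its inhibitor. The order held for 6 of the 7 genes also after quantile normalization and after median centring, when 23.6% and 30% of all genes had it. Array medians ran opposite to part of this order. The median was 7.42 in calorie-restricted replicate 4 against 7.24 to 7.27 in the other 3 calorie-restricted arrays. In ad libitum replicates 1 to 3 the medians were 7.29, 7.44 and 7.42. Their part in it was not tested. The Paneth marker mean also was lowest in calorie-restricted replicate 4 (11.87) and highest in ad libitum replicate 1 (12.22).

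**Figure D4:**
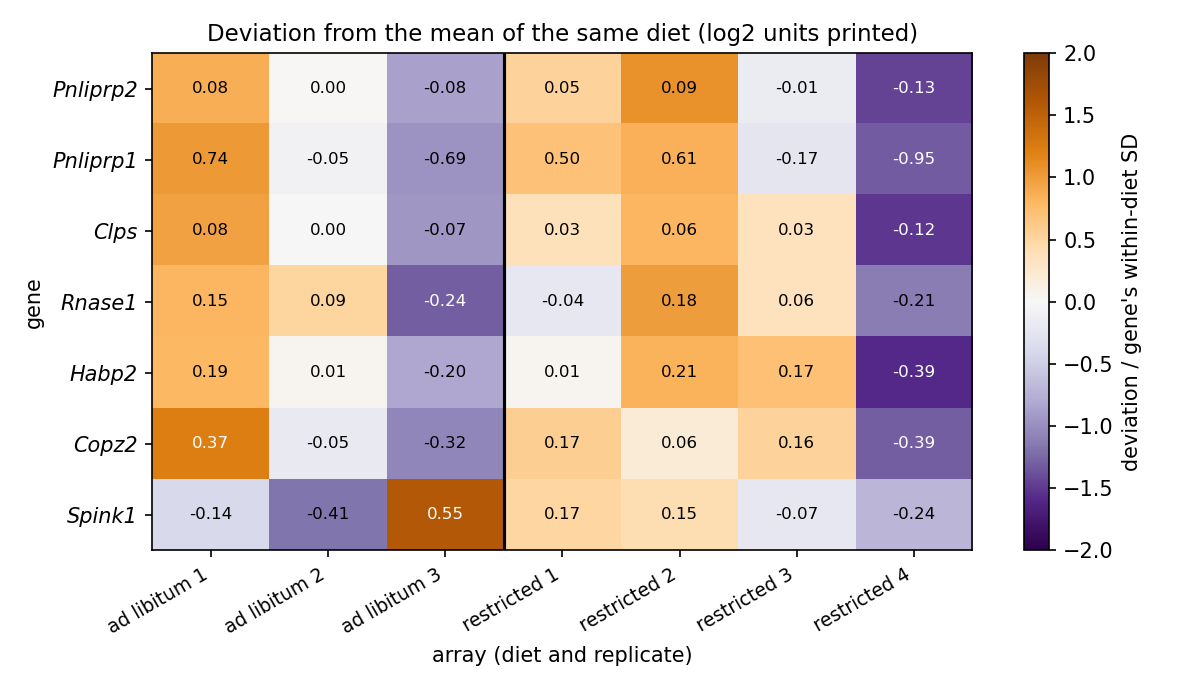
Deviation of the 7 tested genes from the mean of the same diet on each array; the printed numbers are log2 units and the colour is the deviation divided by the gene's SD within diets. Calorie-restricted replicate 4 is below its diet's mean for every gene shown, and ad libitum replicate 3 is below it for all but Spink1.

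The size of that shared deviation differed by gene. In calorie-restricted replicate 4 it was -0.95 log2 units for Pnliprp1, -0.39 for Habp2 and for Copz2, -0.24 for Spink1, -0.21 for Rnase1, -0.13 for Pnliprp2 and -0.12 for Clps. The smallest 2 belonged to the genes nearest the top of the range. In ad libitum replicate 1 the deviation was 0.74 for Pnliprp1, 0.37 for Copz2 and 0.19 for Habp2, and Spink1 lay at -0.14.

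For the 3 genes with the largest SD over the arrays, the genes of most similar pattern were taken as those with the smallest root mean square difference of centred log2 values over the 7 arrays. For Copz2 they were Pon3, a paraoxonase gene (0.04 log2 units), Aph1b, a gamma-secretase subunit gene (0.05), and Fkbp9, a prolyl isomerase gene (0.05). For Spink1 they were Lrrc19 (0.07), the alcohol dehydrogenase gene Adh6a (0.10) and the sulfotransferase gene Sult1b1 (0.12). For Pnliprp1 they were the cytokine receptor gene Lifr (0.25), the glycosyltransferase gene A4gnt (0.28) and the apolipoprotein H gene Apoh (0.31), which were less close than those of the other genes. None of these 9 was called by limma, with adjusted p between 0.128 for Adh6a and 0.857 for Fkbp9. They were picked for patterns like those of genes that were not called, and 0.664% of all genes tested were called.

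Other pancreatic acinar products differed in whether they passed the receptor level. Of 24 other acinar genes with a cluster of their own, 11 were tested and 0 were called (5 positive and 6 negative differences, median -0.05). The 24 include acinar transcription factors, which are counted again among the transcription factors below. Of the 24, 9 lay above the receptor level on every array, 4 lay above it on some and 11 lay under it on every array. Sycn, the syncollin of zymogen granules, was the second highest of them by mean, at 11.17, 10.71 and 10.28 in ad libitum replicates 1 to 3 and at 10.69, 10.31, 10.11 and 10.00 in calorie-restricted replicates 1 to 4. Sycn was the only 1 of the 11 tested with the order of arrays described above, and its difference was -0.44 ± 0.23 (limma, adjusted p = 0.639). Reg1, the pancreatic stone protein, was at 11.46 ± 0.43 against 10.35 ± 1.02, a difference of 1.11 ± 0.44 that did not pass (limma, adjusted p = 0.481). Elastase 1 (Cela1) lay between 7.56 and 7.87 and the pancreatic phospholipase Pla2g1b between 7.37 and 7.85. The diets did not overlap for Pla2g1b, as for 10.2% of all genes tested, and its difference of 0.16 ± 0.11 did not pass (limma, adjusted p = 0.736).

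Transcription factors of acinar and Paneth secretory cells did not separate the diets. By limma 0 of 16 tested were called (9 positive and 7 negative differences, median 0.05). Xbp1, which expands the secretory apparatus, was at 12.84 ± 0.26 against 12.75 ± 0.24, and Atoh1, which sets the secretory fate, was at 12.48 ± 0.31 against 12.71 ± 0.29. Hnf4a, an epithelial nuclear receptor, had a difference of 0.08 ± 0.09 and Sox9, required for Paneth cells, one of -0.02 ± 0.16. The acinar factor Ptf1a lay between 6.53 and 6.82 and passed the receptor level on 2 of 7 arrays.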

How the data were processed

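Per the labels' protocols, total RNA of sorted Paneth cells was labelled with biotin and hybridised to 7 Affymetrix arrays. The authors deposited log2 expression values per transcript cluster, which the submitters' processing notes attribute to Expression Console. Its algorithm and the normalization were not given in the sources used here, and the log2 scale was inferred from the range of the values. The number of arrays limits the precision. Each p-value sets a difference against the spread between these samples, as limma estimates it with the help of all genes tested. Whether that spread is between animals or between pools is not known.

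Of 35556 clusters, 21789 had 1 gene symbol in the platform annotation, 1621 had several and 12146 were unnamed here. The brightest 1-symbol cluster was kept per gene (19938 genes), and genes whose mean was below 6.79, the 40th percentile over clusters, were dropped, leaving 13409. The diet contrast used limma 3.58.1 in R 4.3.3 (lmFit, eBayes with trend, no covariate, Benjamini-Hochberg over all genes tested). The fit was tested on simulated data. Named genes were all 8 genes, called and highest-mean list members (at most 4 of each), measured neighbours, and nearest patterns for 3 genes; Copz1, Ptf1a, Ptprc and the trypsins, named outside this rule, were chosen after their values were seen. The 8 genes and all lists were chosen with earlier results of these data known. Alternatives were quantile normalization, median centring, 2 other filters, cluster means, no trend, array weights, a replicate block, the enterocyte mean as covariate and leaving out each array. Figures were drawn with matplotlib (version 3.10.9).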

Additional observations from a re-analysis of the deposited data

Results flagged for a closer look

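In the 4 calorie-restricted samples, 94 named genes and list means were examined, and 1 sample stood far from the other 3 for 8 named genes and 1 list mean, judged by its gap to the nearest sample as a share of the whole range. For 5% of groups chance alone gives such a gap. That share was 0.950 for Rnh1, 0.931 for Hnf4a, 0.902 for Arf4, 0.854 for Liph, 0.849 for Xbp1, 0.844 for Spink4, 0.839 for Hgfac and 0.837 for Itln1. It was 0.892 for the mean of the enterocyte markers. In each of the 9 cases the sample was replicate 4, which was the lowest except for Hnf4a, where it was the highest (12.97 against 12.70 to 12.72). Of the 8 pancreas-like genes, Clps (0.808) and Copz2 (0.799) came nearest without being far enough out.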

How the results depend on the processing

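Over 128 alternative values of the 8 genes, 120 kept their direction and side of the threshold. Each gene has a single cluster, so the 2 other filters, cluster means and no trend could not change a difference, only its p. The sign turned for Cel with quantile normalization (0.0341), median centring (0.0307), the enterocyte covariate (0.0511) and without calorie-restricted replicate 1 (0.0275; -0.134 to -0.0019 without each other array), for Clps with median centring (0.0374), and for Spink1 with the enterocyte covariate (-0.32). The count of these genes called was 1 (Spink1) with array weights and 0 to 1 in the fits without 1 array, and 0 otherwise. The number negative, examined after seeing the data like the array order under 2 scalings, was 6 except for 5 with median centring and 7 with the enterocyte covariate. Over all genes, 89 were called, 53 after quantile normalization, 1355 with array weights, 12 to 105 without 1 array, and 0 by limma with the enterocyte covariate (230 at an unadjusted p below 0.05) or with the replicate block (988). Replicate numbers 1 to 3 occur in both diets, and the deviations of same-numbered samples correlated at -0.13, -0.27 and -0.55 across genes. Each deviation is from its own diet's mean over few arrays, so these values cannot decide whether same-numbered samples were paired. The block value was -0.58 ± 0.19 for Pnliprp1 (limma, adjusted p = 0.613) and 0.95 ± 0.25 for Spink1 (limma, adjusted p = 0.470). Replicate 4 occurs only under calorie restriction, so the block takes up that array. The block differences therefore equal those without calorie-restricted replicate 4 and are no separate check of them. The count above the receptor level was 7 with a higher receptor percentile and without any 1 array. Leaving out an array could not change it, as 7 genes lay above that level on all 7 arrays and Cel on none. The median of all differences was 0.01, and 0.10 after median centring. The causes were not tested.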
